A study of Homo sapiens with 6 samples.

Results

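The 33 genes described here encode the machinery that cuts pre-mRNA, adds its poly(A) tail, and ends or restrains transcription. They comprise the subunits of CPSF, CstF, CFIm and CFIIm, the poly(A) polymerases and poly(A)-binding proteins, RBBP6, and termination and surveillance factors. The question was at which places their own transcripts end. Every peak whose summit lay in the body of a member gene, or within 4 kb past its 3′ end, was taken. This gave 469 of the 200023 peaks of the list, and no peak lay in more than 1 member. With −log10 q of at least 5, the cutoff of the study, 390 of 138552 peaks were left, and these are described unless stated otherwise.

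The series holds poly(A) 3′-seq of IMR-32 cells, an established human neuroblastoma line, in 3 groups of 2 replicates. One group received the solvent DMSO, and the other groups received 400 nM THZ531, a covalent inhibitor of the transcriptional kinases CDK12 and CDK13, for 2 h or 6 h. No genotype or other agent separates the groups in the labels. The authors pooled the reads before calling peaks (the pool is described as all samples, and its libraries are not listed in the sources used here), so the list carries no value for a single library or group, no strand and no depth per library: DMSO could not be compared with THZ531, replicates could not be compared, and no test was made. Of 7 neuroblastoma marker genes 6 had a terminal peak, among them HAND2 with 67 reads. The marker without one, MYCN, had 2 intronic peaks, the taller of 114 reads, as well as 1 peak in its 3′ UTR and 1 past its gene end. Of 4 markers of other cell types, PTPRC and ALB had none, EPCAM had one of 7 reads and COL1A1 one of 15 reads.

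In human genes, CPSF recognises the hexamer AAUAAA upstream of the cleavage site and holds the endonuclease CPSF3, CstF binds the GU-rich sequence downstream, and CFIm binds UGUA upstream. PCF11 and CLP1 form CFIIm, which joins cleavage to termination, and XRN2 then degrades the RNA still attached to the polymerase. A gene may use several sites: tandem sites in the last exon change the length of the 3′ UTR, whereas a site in an intron gives a transcript that lacks the later exons. PCF11 and CSTF3 are known to carry intronic sites through which the protein can limit its own mRNA, and RBBP6 is known to give a short isoform from an intronic site. These statements are background and were not measured here.

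The sites below carry the main observations, because each is the tallest intronic site of PCF11, WDR33 or NUDT21, the terminal site of PCF11, CSTF3 or NUDT21, or an intronic site of PCF11, CSTF3, RBBP6 or WDR33 at an annotated shorter end. Height is the number of reads at the summit, recovered from the deposited fold and −log10 p. Each run holds 30 bases of GRCh38, 5′ to 3′ on the strand of the gene, and the capitals mark the hexamer chosen among the 12 that the study lists. A match is a description of the sequence and no proof of a site.
PCF11 intron 1, 59 reads (GRCh38, chr11:83159995-83160024, + strand): gacacagcAGTAAAccatttgacatgttcg
PCF11 intron 1, 57 reads (GRCh38, chr11:83158852-83158881, + strand): aatttgtgAATAAAacatataaaatatgta
PCF11 terminal, 24 reads (GRCh38, chr11:83185765-83185794, + strand): atacatgtAATAAAtagaatgatgaagaaa
CSTF3 intron 3, 25 reads (GRCh38, chr11:33141430-33141459, − strand): gcaacaacATTAAAacagtttcaatggtat
CSTF3 terminal, 29 reads (GRCh38, chr11:33084490-33084519, − strand): catttaaaAATAAAtgtcaggacaaggaaa
RBBP6 intron 8, 33 reads (GRCh38, chr16:24559762-24559791, + strand): aataataaAATAAAtaatgttgatgacaag
WDR33 intron 1, 63 reads (GRCh38, chr2:127785125-127785154, − strand): gaaaaaaaATTAAAagaatgacaaactatg
WDR33 intron 7, 28 reads (GRCh38, chr2:127735385-127735414, − strand): gaccttcaAATAAAacttattatgtattgg
NUDT21 intron 3, 27 reads (GRCh38, chr16:56442880-56442909, − strand): tcatggatATTAAAaaaatgttggaagaaa
NUDT21 terminal, 31 reads (GRCh38, chr16:56429134-56429163, − strand): gtcatttcAATAAAaaatatttgaaagaga
Only sites with a hexamer are shown, so its presence in this list is no finding. The terminal sites shown carried AATAAA, and the intronic sites carried that hexamer or one of its variants. The distance from hexamer to edge varied, from 6 bp at the PCF11 peak of 59 reads to 95 bp at that of 57 reads, and was 88 bp in NUDT21 intron 3. The tallest intronic peak of RBBP6, with 41 reads in intron 1, had none of the 12 hexamers and is therefore not shown.

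Each summit was placed against the canonical transcript. A terminal peak lay from 200 bp before to 600 bp past the canonical 3′ end, and a tandem peak lay in the canonical 3′ UTR ahead of that window. The class rests on the summit, so a wide tandem peak could have its edge inside the terminal window, as in PABPC1, SCAF4 and SCAF8. Of the 390 peaks, 241 were intronic (61.8%, 95% Wilson interval 56.9 to 66.5%), 52 were tandem (13.3%, interval 10.3 to 17.1%) and 30 were terminal (7.69%, interval 5.44 to 10.8%). A further 37 lay in other exons, 20 lay over 600 bp past the gene end, 6 lay over 600 bp past the canonical end but no more than 600 bp past the gene end, and 4 lay ahead of the canonical start. Over all protein-coding genes, 64% of peaks were intronic, 9.45% tandem and 8.61% terminal. The intronic and terminal shares of all genes lay within the members' intervals, whereas the tandem share lay below the members' interval, as did the share in other exons (4.57% over all genes against 9.49%, interval 6.96 to 12.8%). The intervals cover counting error only. Without the 71 peaks in which another gene also lay, the tandem share was 9.40% and the intronic share 68.7%.

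**Figure D1:**
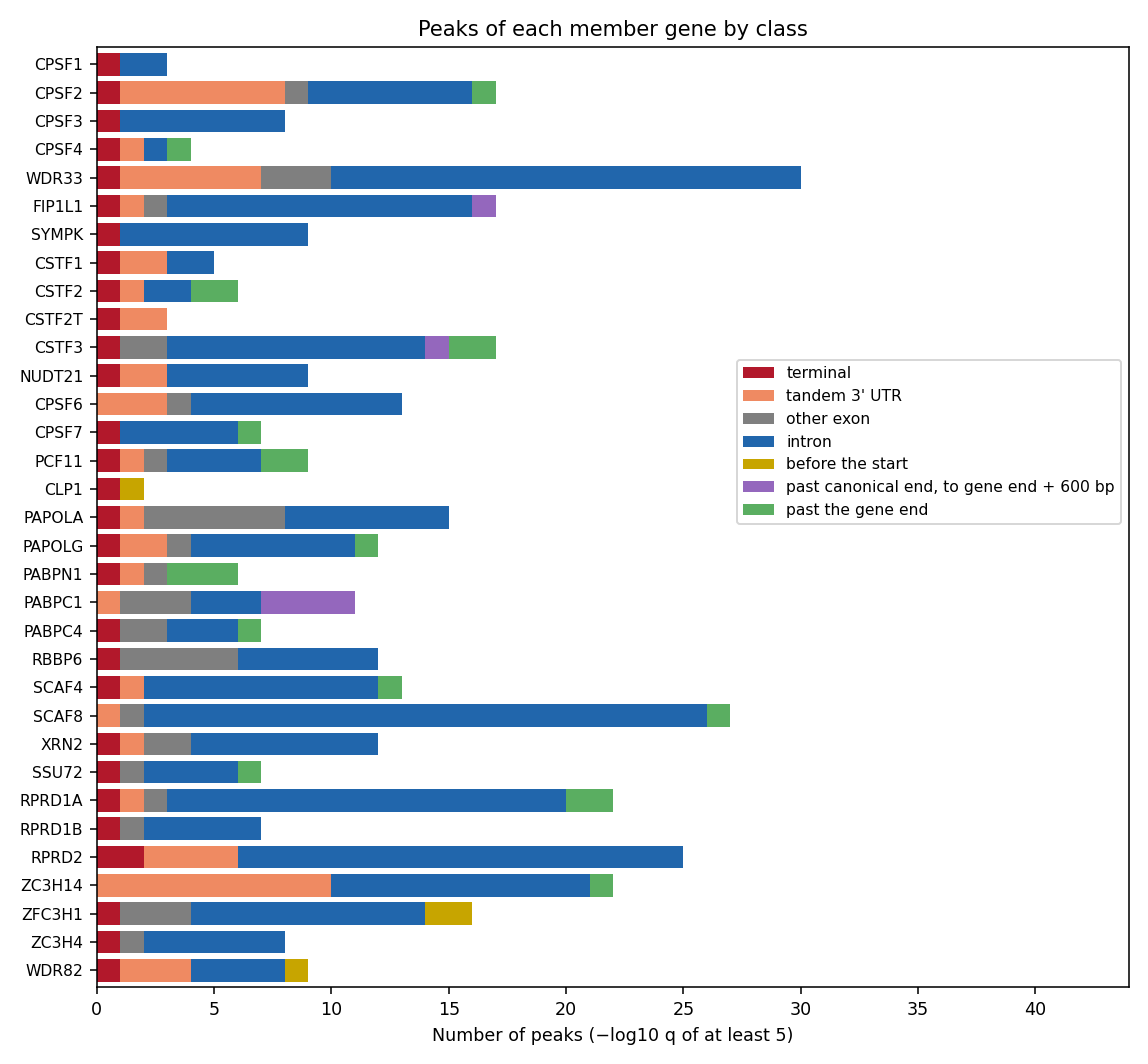
Number of peaks with −log10 q of at least 5 in each member gene (horizontal axis), with the genes in the order of their roles from CPSF at the top to the surveillance factors at the bottom, and colours for the 7 classes. WDR33 held 30 peaks, of which 20 were intronic, whereas CLP1 held 2 peaks and none in an intron.

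A terminal peak was present in 29 of the 33 members (87.9%), against 53.5% of all protein-coding genes. An intronic peak was present in 30 of 33 members, and in 26 of the 29 with a terminal peak (89.7%), against 77.9% of all genes with a terminal peak. CLP1, PABPN1 and the single-exon gene CSTF2T had no intronic peak. A tandem peak was present in 21 of 33 members, and in 17 of the 29 (58.6%), against 45.6% of genes with a terminal peak. The median member held 6 intronic peaks, with a range from 0 to 24, against a median of 3 over genes with a terminal peak. The members were longer, however, with a median of 45.8 kb against 33.2 kb.

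Intronic peaks were also denser in the members. The members held 0.179 intronic peaks per kb of canonical intron, and the 29 with a terminal peak held 0.167. Genes with a terminal peak held 0.101, and those of them within the members' range of lengths held 0.131. Set against the 500 genes nearest in length that had a terminal peak, 26 of 33 members had an intronic count above the middle rank, and 6 ranked above the 90th percentile, 4 of them among the members with a terminal peak. The 6 were SCAF8 (24 peaks, against a median of 9 in the genes nearest in length), CPSF6 (9 against 4), RPRD1A (17 against 8), NUDT21 (6 against 2), WDR33 (20 against 10) and RPRD2 (19 against 10.5). The lowest rank belonged to CLP1, and RPRD1B held 5 peaks where the genes nearest in length had a median of 9. Over the 33 members, Spearman's rho between gene length and the number of intronic peaks was 0.88, against 0.79 over all genes with a terminal peak and 0.69 over those within the members' range of lengths. The members also had somewhat taller terminal peaks, with a median of 25 reads for the tallest of each gene against 22, and a higher local background at their intronic peaks, 1.39 against 0.810 reads. The part of either in these counts was not tested.

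**Figure D2:**
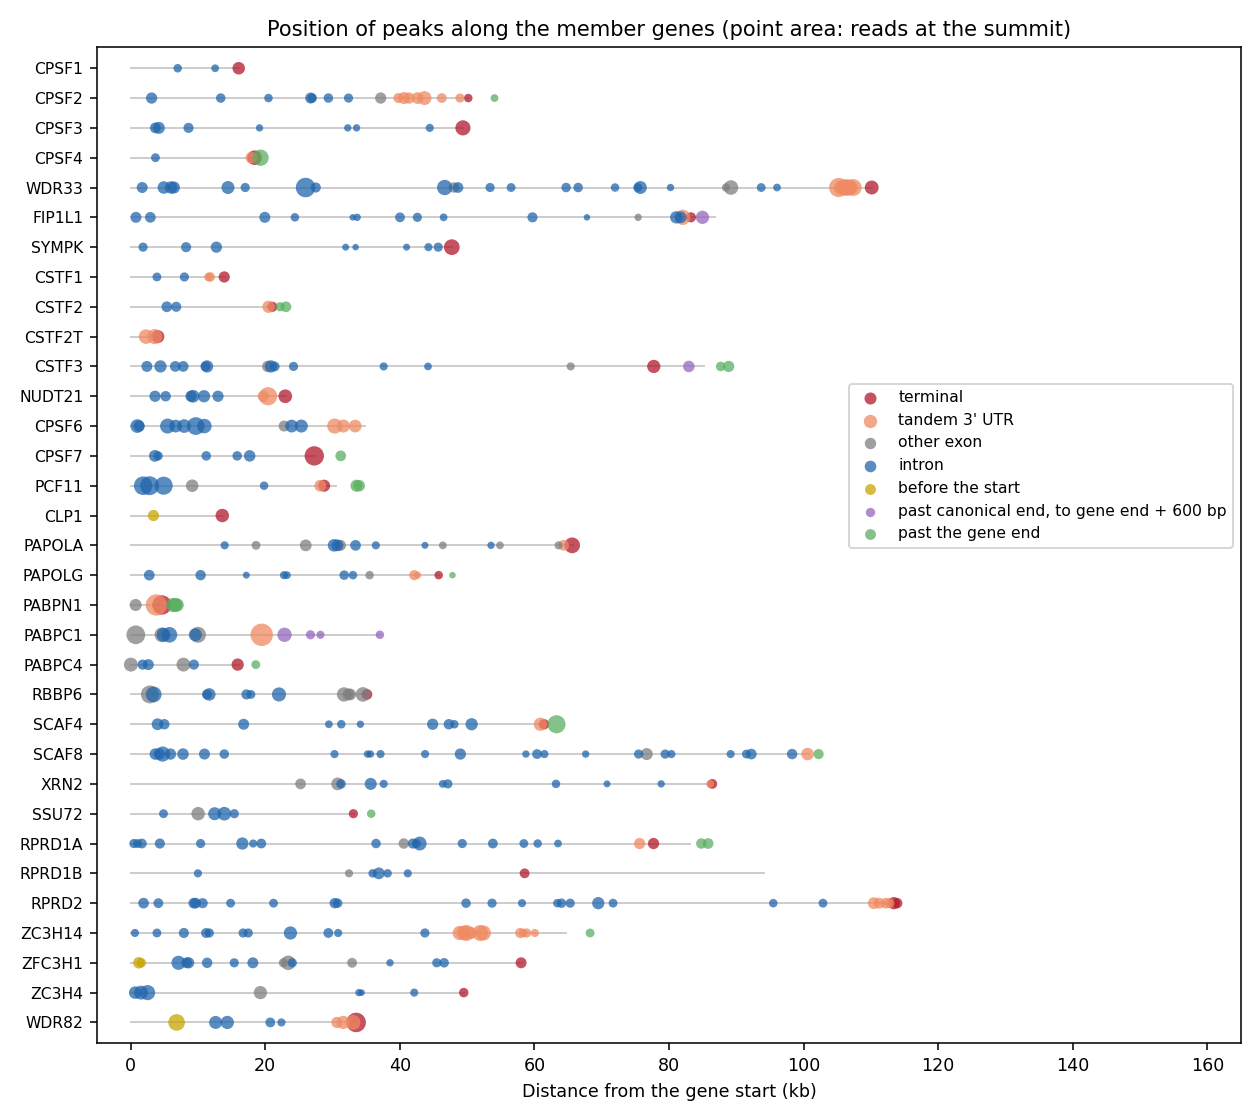
Summits of the 390 peaks as points along each member gene, in kb from the gene start, with point area proportional to reads at the summit and the grey line marking the gene. Intronic points spread over most of the long genes, and in PCF11 the 3 tallest points, all intronic, lie near the start.

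PCF11 and CLP1 form CFIIm. PCF11 (chr11:83156988-83187451, + strand, 15 introns) binds the polymerase tail and promotes termination. Its summit reads were 57 and 59 in intron 1, at 1.87 and 2.83 kb from the start, 54 in intron 2, 26 in an exon at 9.15 kb, 12 in intron 9, 23 at a tandem site and 24 at the terminal site. The 3 early intronic peaks were thus each over 2-fold as tall as the terminal one, and of the 5 intronic peaks of at least 50 reads in all members, 3 were those of PCF11. Their local background was also higher, at 7.83, 8.10 and 8.78 reads in order of position, against 2.80 at the terminal peak. The deposited fold over background was 6.57, 6.59 and 5.62, against 6.58 at the terminal peak, so the greater height was not matched in fold. The peak of 57 reads ended 75 bp past the end of a short annotated transcript whose status still awaits experiment. The peak of 59 reads had AGTAAA 6 bp before its edge, and the peak of 54 reads was 644 bp wide, the widest among the members, with no hexamer. The tandem, terminal and past-end peaks of PCF11, 4 in all, lay in ANKRD42-DT on the opposite strand, and its intronic peaks lay in no other gene. In all, 60.5% of the summit reads of PCF11 were intronic, whereas CLP1, an RNA kinase, had 30 reads at its end, 21 ahead of its canonical start and none in an intron.

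CstF binds the downstream element. CSTF3 (chr11:33077188-33162371, − strand, 20 introns), its scaffold, held 29 reads at the terminal site and at most 25 at an intronic site. Its 3 intronic peaks of 25 reads lay in intron 1, where 2 of them had AATAAA, and in intron 3, with ATTAAA 22 bp before the edge. The edge in intron 3 was 35 bp past an annotated end of short protein-coding isoforms, and a second peak of 16 reads in intron 3 also lay at one. Of its 11 intronic peaks 6 lay in intron 1, with 17 to 25 reads. The terminal peak of CSTF3 and 4 other peaks of it lay in TCP11L1 or another gene of the opposite strand, and none of its intronic peaks did. CSTF2, the RNA-binding subunit, had 19 reads in intron 6, 25 at a tandem site and 17 at its end. Its paralogue CSTF2T had 2 tandem peaks of 35 and 38 reads and a terminal peak of 28 reads, all 3 with AATAAA, and CSTF2T lies inside PRKG1, a gene of the opposite strand. CSTF1 had 14 reads at its tallest intronic, 15 at its tallest tandem and 21 at its terminal peak.

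The CPSF genes ranged from 3 peaks in CPSF1 to 30 in WDR33. WDR33 (chr2:127701027-127811187, − strand), which contacts the hexamer, had 63 reads in intron 1 at 26 kb from the start, the tallest intronic peak of any member, with ATTAAA 39 bp before the edge. Its other tall peaks were 39 reads in intron 6, 35 reads in an exon, and 28 reads in intron 7 with AATAAA, 7 bp past the end of a short protein-coding isoform, while its terminal peak had 32 reads. WDR33 also had 6 tandem peaks of 32 to 61 reads, but 4 of its peaks, all tandem, lay within SFT2D3 on the opposite strand. FIP1L1, which brings in the polymerase PAPOLA, had 13 intronic peaks of up to 25 reads, 39 tandem, 17 terminal and 29 at a later annotated end, and all 17 of its peaks lay within an overlapping gene of the same strand. The tandem, terminal and later-end peaks of FIP1L1 also lay in LNX1 on the opposite strand, so their strand is unknown. CPSF2 had 21 reads in intron 1, up to 32 reads over 7 tandem peaks and 12 at its terminal site, and its canonical 3′ UTR is 10404 bases long. The terminal peak stood above the introns in CPSF1 (26 against 12 reads), CPSF3 (38 against 24), CPSF4 (35 against 13) and the scaffold SYMPK (41 against 21). All 4 peaks of CPSF4 lay in genes of the opposite strand.

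Among genes of like length, the intronic counts of the CFIm genes NUDT21, CPSF6 and CPSF7 stood at percentiles 95.4, 98 and 83.6. NUDT21 (chr16:56429133-56452199, − strand), which binds UGUA, had 6 intronic peaks of 18 to 27 reads, tandem peaks of 21 and 55 reads and a terminal peak of 31 reads, so its tallest site was a tandem one. The tandem peak of 55 reads had no hexamer, and 8 of its 9 peaks lay in an overlapping gene of the same strand. CPSF6, a partner of NUDT21, had 9 intronic peaks with 21 to 52 reads, 7 of them in intron 1 and 8 with a hexamer, together with tandem peaks of 27, 28 and 38 reads. No peak lay at its canonical end. Its tandem peak of 38 reads was 547 bp wide, with its summit ahead of a shorter annotated end and its edge 179 bp past that end. CPSF7, the alternative partner, had 62 terminal and at most 23 intronic reads.

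RBBP6 (chr16:24537693-24572863, + strand), a RING-finger protein that activates cleavage, had 19 reads at the terminal site. Its tallest peak had 53 reads in the first exon, and its intronic peaks had 41 reads in intron 1, 17 and 26 in intron 3, 17 and 13 in intron 4, and 33 in intron 8. The intron 8 peak had AATAAA 39 bp before its edge, and the edge was 3 bp past the annotated end of a short protein-coding isoform. Peaks of 34, 22, 23 and 35 reads lay in its late exons. Of all its summit reads, 44.1% were intronic and 5.71% terminal.

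**Figure D3:**
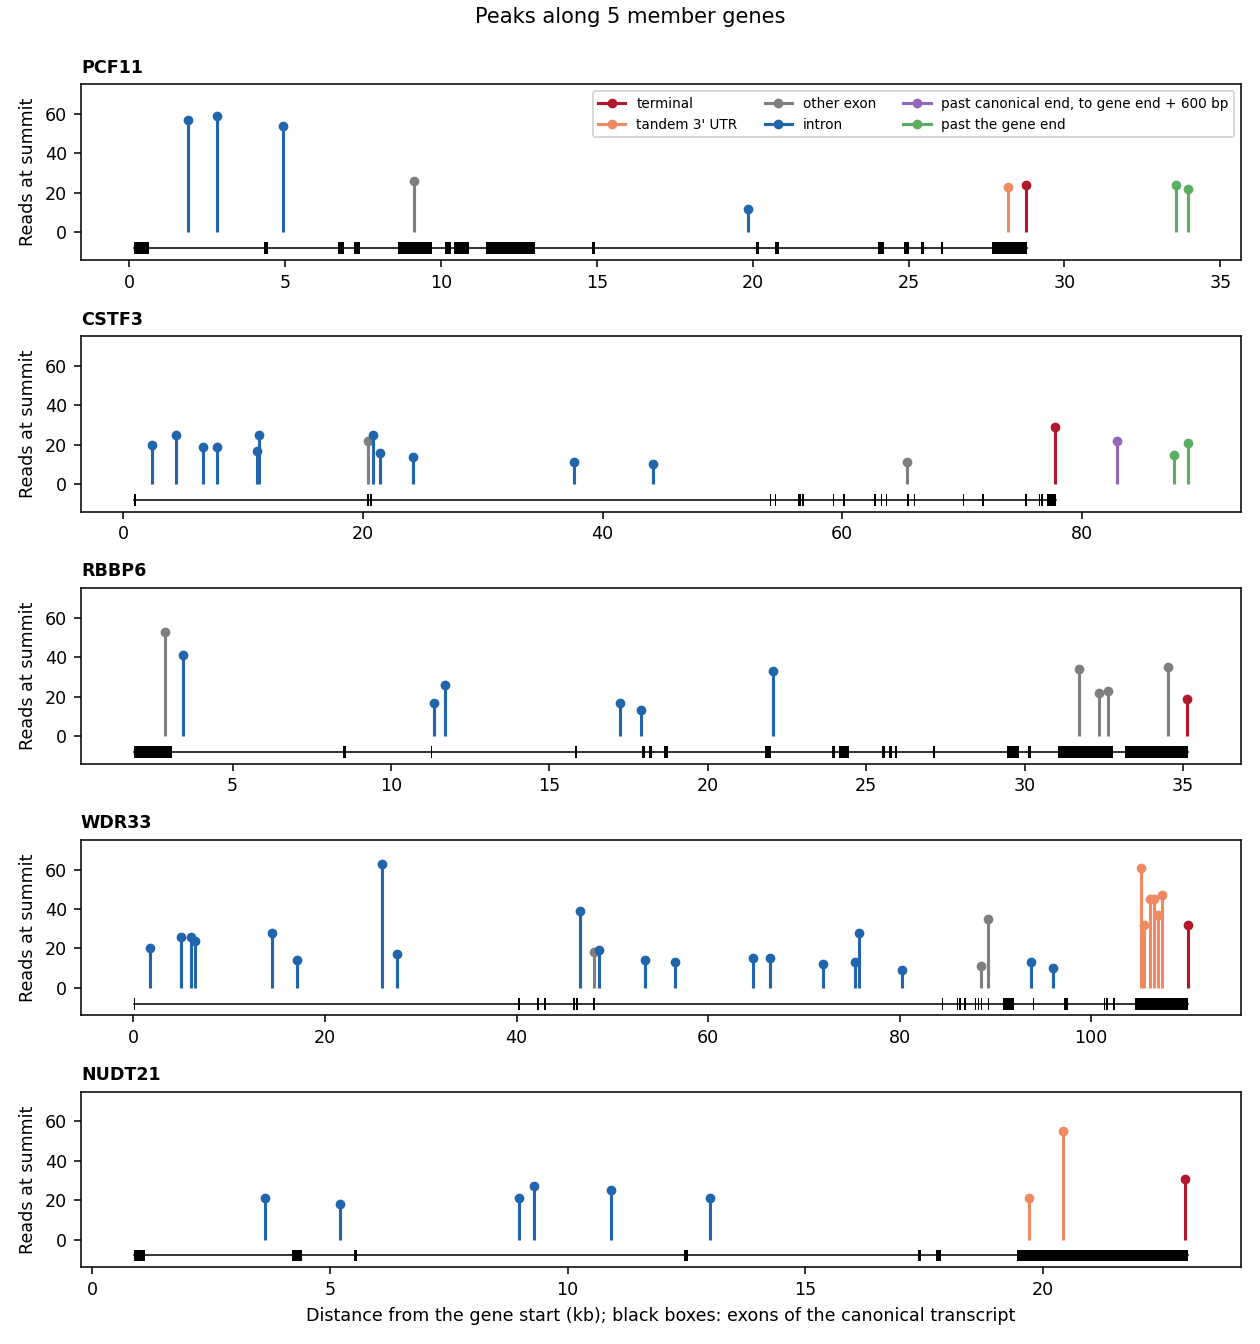
Reads at the summit (vertical axis) of each peak along PCF11, CSTF3, RBBP6, WDR33 and NUDT21, in kb from the gene start, with colours for class and black boxes for exons of the canonical transcript. In PCF11 the 3 early intronic peaks stand at 54 to 59 reads and the terminal peak at 24 reads.

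Among the enzymes that make the tail and the proteins that bind it, the terminal peak was the taller in PAPOLA and PABPC4 and the intronic peak in PAPOLG. PAPOLA, the main nuclear poly(A) polymerase, had 41 terminal reads, 26 and 23 in intron 7, and 4 of its 7 intronic peaks at annotated ends. PAPOLG, a related polymerase, had 12 terminal and 19 intronic reads at its tallest sites. PABPN1, the nuclear poly(A)-binding protein, had 62 terminal, 75 tandem and no intronic reads, and 3 peaks of 29 to 34 reads lay 1650 to 2214 bp past its end. The first 3 of the PABPN1 peaks also lay in the readthrough gene BCL2L2-PABPN1. PABPC1, the main cytoplasmic one, had the tallest peak of all members, 83 reads at a tandem site with AATAAA 20 bp before the edge, which was 2 bp short of an annotated end. That annotated end is the canonical one. The peak was 621 bp wide and was classed as tandem because its summit stood 408 bp ahead of the canonical end. PABPC4 had 25 terminal and 20 intronic reads.

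Of the termination factors, all 6 with a terminal peak by summit position had an intronic peak at least as tall. In SCAF4 this rests on a summit past the end, as given below. Over all genes with both kinds of peak the share was 46.9%. With any annotated end counted as terminal, only XRN2 and RPRD2 of these 6 had one at least as tall, against 38.3% of all such genes. XRN2, the 5′ to 3′ exonuclease, had 24 reads in intron 13 and 16 at its end. SSU72, a phosphatase of the polymerase tail, had 31 and 28 reads in intron 2 and 14 at its end, and the first of these lay at an annotated short end with AATAAA. RPRD1A, RPRD1B and RPRD2, which bind the polymerase tail, had 32, 23 and 25 intronic reads at their tallest sites and 21, 16 and 25 terminal reads. SCAF4 and SCAF8 are tail-binding proteins known to restrain early sites. SCAF4 had 25 intronic reads in intron 19 and 18 terminal reads, the latter at a summit 310 bp past the gene end with no hexamer. Its tandem peak of 29 reads, with AATAAA and its edge 4 bp short of an annotated end, was taller than both. The summit of this tandem peak stood 239 bp ahead of the canonical end in a peak 291 bp wide, so its edge lay within the terminal window. SCAF8 had 24 intronic peaks with up to 38 reads, no terminal peak, and a tandem peak of 26 reads that lay 253 bp ahead of its canonical end, just outside the window. That peak was 500 bp wide, and its edge was 124 bp past the gene end.

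In the surveillance group, ZFC3H1, which links polyadenylated nuclear RNA to the exosome, had 33 reads in intron 1, 35 in an exon and 20 at its end. ZC3H4, which with WDR82 restrains transcription of unproductive RNA, had 26 reads in intron 1, 32 and 38 in intron 2 and 15 at its end, and none of these 3 intronic peaks had a hexamer. WDR82 had 63 terminal reads, 36 tandem and 29 intronic. ZC3H14, a zinc-finger protein that binds poly(A), had 10 tandem peaks of 11 to 42 reads and no peak at its canonical end, which closes a 3′ UTR of 15848 bases. Of those tandem peaks 9 lay in EML5 on the opposite strand, so their strand is unknown. The tandem peak of 33 reads had its edge 22 bp short of the end of a shorter annotated transcript of ZC3H14. A tandem peak of 42 reads had its edge 5 bp past another such end.

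Across the members with both, the tallest intronic peak had at least as many reads as the tallest terminal peak in 15 of 26 genes (57.7%), against 46.9% of all such genes. The ratios ran from 2.53 in ZC3H4, 2.46 in PCF11, 2.21 in SSU72 and 2.16 in RBBP6 down to 0.371 in CPSF4 and CPSF7, with equality in RPRD2. Those 15 were CPSF2, WDR33, FIP1L1, CSTF2, PCF11, PAPOLG, RBBP6, SCAF4, XRN2, SSU72, RPRD1A, RPRD1B, RPRD2, ZFC3H1 and ZC3H4. With any annotated end counted as terminal, 10 of 30 members met the condition (33.3%), a lower share than the 38.3% of all genes. CPSF6 and SCAF8 joined under that setting, while FIP1L1, CSTF2, RBBP6 (41 against 53 reads), SCAF4, SSU72 (14 against 31), RPRD1A (25 against 32) and RPRD1B (12 against 23) no longer met it, and in PCF11 the heights were 59 and 57. With the tallest terminal or tandem peak in place of the terminal one, 13 of 30 did (43.3%, against 37.2% of all genes). CPSF6 and SCAF8 joined here too, with 52 and 38 intronic reads against 38 and 26 tandem reads, and CPSF2, FIP1L1, CSTF2 and SCAF4 no longer met it. The median member had 55.4% of its summit reads in introns, against 44.2% over genes with a terminal peak. Counting error alone is several reads at these heights, so ratios near 1 cannot be ranked. The heights also include local background. Among the 15, the deposited fold was higher at the terminal peak in CPSF2 (6.53 against 5.76), PAPOLG (7.56 against 6.76) and XRN2 (11.6 against 9.19). The same held in ZFC3H1 (12.9 against 7.10) and ZC3H4 (10.0 against 4.94). In the rest of the 15 the intronic peak had the higher fold, in PCF11 by 6.59 against 6.58.

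**Figure D4:**
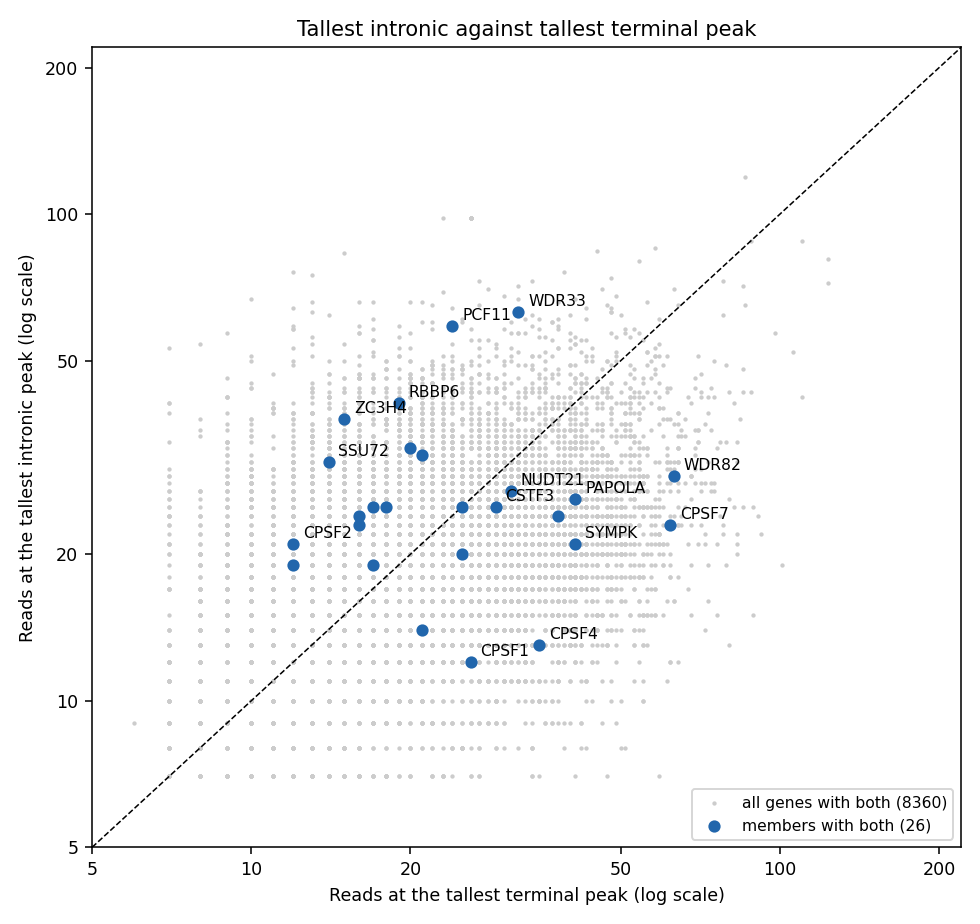
Reads at the tallest intronic peak against reads at the tallest terminal peak, both on log axes, for the 26 members with both (blue) and all 8360 genes with both (grey), with the dashed line at equality. PCF11 and WDR33 lie highest among the members at 59 and 63 intronic reads, and CPSF7 and WDR82 lie far to the right at 62 and 63 terminal reads.

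The intronic sites of the group with the taller intronic peak are shown for comparison with their own ends, where a hexamer was found.
SSU72 intron 2, 31 reads (GRCh38, chr1:1560862-1560891, − strand): aagccttcAATAAAttttggccagttgtcc
SSU72 terminal, 14 reads (GRCh38, chr1:1541672-1541701, − strand): gaattgtcAATAAAcagatgctgctgtcat
RPRD1A intron 6, 32 reads (GRCh38, chr18:36024553-36024582, − strand): aagccattATTAAAgcatgtgtaatgaatg
RPRD1A terminal, 21 reads (GRCh38, chr18:35989832-35989861, − strand): atgttcttAATAAAgttttatgttcttttt
RPRD1B intron 6, 23 reads (GRCh38, chr20:38070590-38070619, + strand): tcagcgtgAATAAAgcatgatacagacatg
RPRD1B terminal, 16 reads (GRCh38, chr20:38092333-38092362, + strand): tatttttgAATAAAgatggtgttgttgaac
RPRD2 intron 2, 25 reads (GRCh38, chr1:150432610-150432639, + strand): atcacaatAAGAAAatgataaaaaaaaaaa
RPRD2 terminal, 25 reads (GRCh38, chr1:150476538-150476567, + strand): tatcgtttAATAAAataactagtttgaaag
SCAF4 intron 19, 25 reads (GRCh38, chr21:31681367-31681396, − strand): ttccaaacAATAAAaaagaatacacaaaaa
CSTF2 intron 6, 19 reads (GRCh38, chrX:100825777-100825806, + strand): tctaaataAATAAAtacattttcagagata
CSTF2 terminal, 17 reads (GRCh38, chrX:100841490-100841519, + strand): caagatgaAATAAAaacagaaatcaaatga
ZFC3H1 intron 1, 33 reads (GRCh38, chr12:71660531-71660560, − strand): tttttattAGTAAActggcatatgatgttg
ZFC3H1 terminal, 20 reads (GRCh38, chr12:71609600-71609629, − strand): acttttttAATATAagttaactttctaaaa
FIP1L1 intron 16, 25 reads (GRCh38, chr4:53458618-53458647, + strand): cagttgtcAAGAAAacatttctatttcaat
FIP1L1 terminal, 17 reads (GRCh38, chr4:53460833-53460862, + strand): acaagataAATATAgtgtttcaacttctta
Of the 15 tallest intronic peaks in this group, 10 had a hexamer, 3 lay at another annotated end, and 1, that of RPRD2, was followed by a stretch rich in A, nearly all of it past the bases shown. Those of CPSF2, PAPOLG, RBBP6, XRN2 and ZC3H4 had no hexamer. The distance also varied: AATAAA stood 21 to 25 bp before the edge in SCAF4 and SSU72, 87 bp in RPRD1B, and AAGAAA 91 bp in FIP1L1.

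Each 100 bp window was searched for 12 hexamers, and AATAAA was preferred where several occurred, then ATTAAA, then the one closest to 21 bp from the edge. At intronic member peaks AATAAA was taken 74 times, ATTAAA 29 times, AAGAAA 19 times, AGTAAA and CATAAA 5 times each, TATAAA 4 times, AATATA 4 times, AATGAA 3 times, AATAGA 3 times, GATAAA 2 times, AATACA 1 time and ACTAAA 0 times. At terminal sites a hexamer was found in 28 of 30 member peaks (93.3%, interval 78.7 to 98.2%), at tandem sites in 40 of 52 (76.9%) and at intronic sites in 149 of 241 (61.8%, interval 55.6 to 67.7%). Over all genes these shares were 86.2%, 78.8% and 58.7%. The same search on the opposite strand found a hexamer at 46.9% of the intronic and 70% of the terminal member peaks. AATAAA itself was present at 73.3% of terminal, 34.6% of tandem and 30.7% of intronic member peaks, and its median distance to the edge was 24, 27.5 and 25 bp. An A-rich stretch (18 or more A among 25 bases, within 50 bp downstream), to which an oligo(dT) primer can anneal, followed 49 of 241 intronic peaks (20.3%, interval 15.7 to 25.9%), 1 of 52 tandem and 0 of 30 terminal peaks. In all genes 26.6% of intronic peaks had such a stretch. Intronic peaks with both a hexamer and no such stretch numbered 135, or 56%, against 49.5% over all genes.

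**Figure D5:**
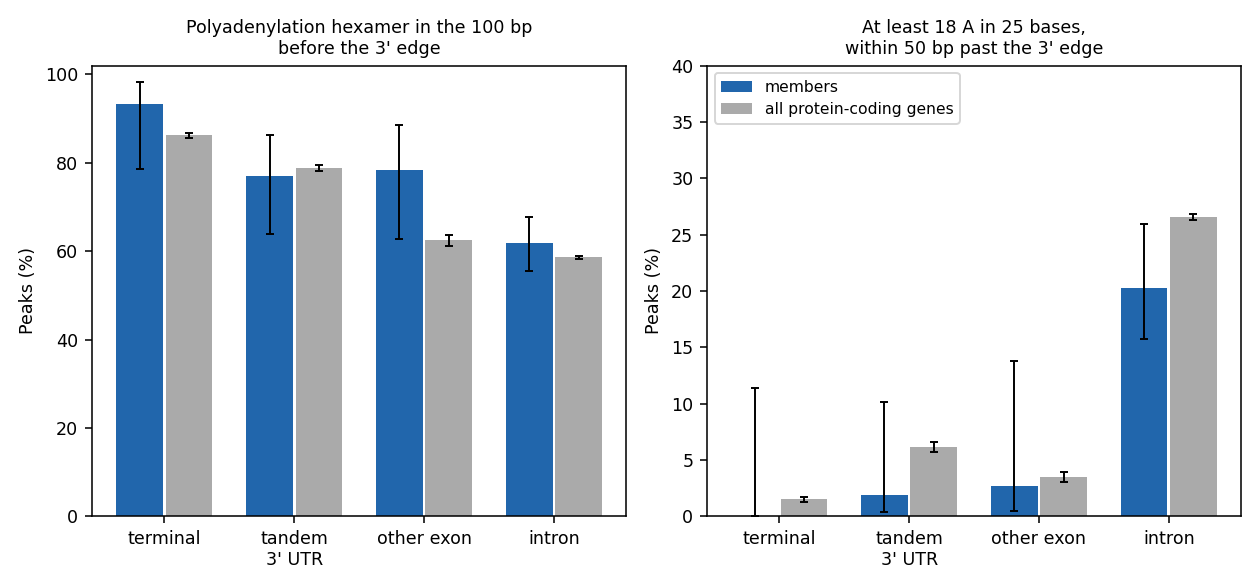
Share of peaks (%) with a polyadenylation hexamer in the 100 bp before the 3′ edge (left) and with an A-rich stretch within 50 bp past it (right), by class, for members (blue) and all protein-coding genes (grey), with 95% Wilson intervals as bars. Hexamers fall from 93.3% at terminal to 61.8% at intronic member peaks, and A-rich stretches run from 0 at terminal to 20.3% at intronic ones.

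Part of the intronic sites lay near the ends of other annotated transcripts of the gene, among them retained-intron and nonsense-mediated decay models. A peak was counted when its summit lay from 200 bp before to 600 bp past such an end. Its edge could thus lie further off, as in CSTF1 at 364 bp. Of 241 intronic member peaks 29 lay at another annotated end (12%, interval 8.51 to 16.7%), in 18 genes, against 7.52% over all genes. These 29 had a median of 19 reads and a hexamer in 89.7%, and the other 212 had a median of 15 reads and a hexamer in 58%. Intronic peaks of at least 20 reads numbered 75, in 25 genes, or 31.1% of intronic member peaks against 17.2% over all genes. Intron 1 held 77 of the 241 (32%, interval 26.4 to 38.1%), against a share of 26.8% of the intron bases of the same genes, weighted by their peaks. Over all protein-coding genes intron 1 held 29.4% of the intronic peaks and 25.8% of the bases, so the members' interval includes the share of all genes. The peaks in intron 1 had a median of 19 reads and those in later introns 14 reads, and a hexamer was found at 51.9% of the former and 66.5% of the latter.

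Among the 17 members with both tandem and terminal peaks, the tandem peak was the taller in 9, against 49.1% of the 4898 genes with both. The tandem to terminal ratio was 2.67 in CPSF2, 2.29 in FIP1L1, 1.91 in WDR33, 1.77 in NUDT21 and 1.61 in SCAF4, and it was 0.463 in PAPOLA. SCAF4 is 1 of the 9, but its tandem peak had its edge within the terminal window. Its ratio therefore does not set an earlier site against the canonical end. Tandem peaks numbered 0.663 per kb of canonical 3′ UTR in the members and 0.421 in genes with a terminal peak. Of the 52 tandem peaks 18 lay in a gene of the opposite strand, 9 of them in ZC3H14 and 4 in WDR33. The edge of 18 of the 30 terminal peaks (60%) was within 10 bp of the canonical end, against 57.9% over all genes. RPRD2 had 2 terminal peaks, of 25 and 18 reads.

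Past the gene end, 14 of 33 members, and 12 of the 29 with a terminal peak (41.4%), had a peak more than 600 bp and up to 4000 bp away, against 31.6% of genes with a terminal peak. The tallest had 54 reads past SCAF4, in SOD1 on the opposite strand, and 44 reads past CPSF4, in ATP5MF. In all, 12 of these 20 peaks lay in another gene, and without such peaks 5 members had one. These were CPSF2, CSTF2, PABPN1, PAPOLG and RPRD1A. The PAPOLG peak had 7 reads, no hexamer and 23 A in 25 bases downstream, and the RPRD1A peaks had no hexamer. CPSF2, CSTF2 and PABPN1 each had such a peak with AATAAA. The members nearest the 4000 bp limit were CPSF2 at 3900 bp with 10 reads and CPSF7 at 3834 bp with 19 reads, and the first peak outside it stood 4424 bp past CSTF3 with 22 reads. At the cutoff on −log10 q, the nearest values were 5.085 at an exonic peak of PAPOLA and 4.997 at an intronic peak of CPSF2.

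Of 24 other genes of the pathway, such as phosphatase subunits, exosome and cap-binding partners, 18 had a terminal peak, and of these 15 had an intronic and 11 a tandem peak. In 7 of those 15 the tallest intronic peak was at least as tall as the terminal one, and the median of the 18 was 3.50 intronic peaks. The list was chosen with results of these data known and is given for its counts alone.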

How the data were processed

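IMR-32 cells were profiled by poly(A) 3′-seq, whose reads start at the cleavage site. Per the labels and the methods of the study, the authors mapped trimmed reads to GRCh38 with STAR 2.5.1b, keeping up to 20 placements, merged the reads of all samples, which are not listed in the sources used here, and called peaks once with MACS2 2.1.1, extending reads to 100 bp without a control. The study then discarded, as false positives, peaks that lacked its hexamers but preceded a genomic stretch with at least 22 A in 25 bases. The deposited list still holds such peaks, for example that in SCAF8 intron 19 with 25 A in 25 bases. They were kept in the main counts here. The authors' deposited fold is the ratio of summit pileup plus 1 to local background plus 1. The deposited −log10 p-value and −log10 q-value describe the summit, the deposited score is a truncated multiple of the latter and was not used, and other deposited columns give positions. Replicates were pooled, so library depth is unknown.

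Summit reads were solved from fold and −log10 p. The largest misfit was 0.000172, and on simulated peaks 100.0% were recovered. The highest value in the list was 200, which is also the most that 100 start positions on either strand allow when identical reads are counted once. Whether they were is not given in the sources used here, and tall peaks may be understated. Peaks were assigned to the 20046 protein-coding genes of Gencode release 44 (the study used another release) in the order terminal, tandem, other exon, intron, with windows as given above. A peak in several genes was counted once for each. The edge of the peak towards the gene's 3′ end was taken as the cleavage site, with the strand taken from the gene. Shares have 95% Wilson intervals. Members, roles and lists were chosen with earlier results of these data known. Genes described in full were those with the tallest intronic peak at least as tall as the terminal one, the 5 with most intronic and the 5 with most tandem peaks, those with no terminal peak, and PCF11, CSTF3, RBBP6, WDR33 and NUDT21. Alternatives were other −log10 q cutoffs, a 100 bp window, all transcripts, removal of shared peaks, removal of A-rich peaks without a hexamer, and other hexamer and A-rich settings. Python 3.11.15 with NumPy 2.4.6, pandas 2.3.3, SciPy 1.17.1 and pysam 0.24.0 was used. The sequences of some terminal sites are not reported here.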

Additional observations from a re-analysis of the deposited data

How the results depend on the processing

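No paired analysis was possible because the deposited list is pooled and holds no value per replicate, and for the same reason no replicate could be left out. The strict cutoff of 20 on −log10 q changed every result: 48 peaks were left, of which 33.3% were intronic, 18.8% tandem and 25% terminal, 81.2% had a hexamer and 4.17% an A-rich stretch. With it 9 members had an intronic, 8 a tandem, 12 a terminal and 2 a past-end peak, the median was 0 intronic peaks, and 0 members had both kinds of peak with the intronic one at least as tall. With all transcripts, 51.8% of peaks were intronic and 23.1% terminal. Without peaks shared with another gene, 68.7% were intronic and 9.40% tandem, and 5 members had a past-end peak. Hexamer shares were 43.8% for AATAAA and ATTAAA alone and 40.8% in a window ending at the summit, and the A-rich share was 3.85% at 22 of 25. The other planned settings stayed within 1.5 times a count or within the interval of a share. One alternative was chosen after seeing the data, the comparison with the tallest terminal or tandem peak, and gave 13 members. Depth limits the low peaks, and heights cover counting error only.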

Other observations

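Of the 469 peaks in the member genes, 79 stayed under the cutoff on −log10 q, in 26 genes, with a median of 9 reads. Of these 59 were intronic, 6 tandem and 0 terminal, so all terminal peaks of the members passed the cutoff. The peak with the most reads in each member was intronic in 9 genes (27.3%), terminal in 9 (27.3%), tandem in 8 (24.2%), in another exon in 4 (12.1%) and past the gene end in 2 (6.06%), and in RPRD2 an intronic and a terminal peak were equal. Over the 15425 protein-coding genes with a peak these shares were 25.9%, 30.4%, 18.9%, 3.43% and 11.4%. Those in another exon belonged to RBBP6 (53 reads), ZFC3H1 (35 reads), PABPC4 (32 reads) and XRN2 (27 reads).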
